A study of Mus musculus with 6 samples.

Results

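Kit, Sohlh1, Sohlh2, Dmrt1, Dmrtb1, Ccnd2, Prss50 and Ly6k, 8 genes listed as those of differentiating spermatogonia, were followed in whole testes of knockout (Ankrd31-/-) and wild-type (Ankrd31+/+) mice. The 8 genes were chosen by name, and each was found once among the 49671 gene rows of the count table by its Ensembl identifier in GENCODE mouse annotation; all 8 were among the 18040 genes tested. Both groups were C57BL/6J testes taken at 12 days post-partum, with 3 libraries of each genotype numbered 1 to 3 and, by the series text, 3 mice of each. The labels name no other allele and no treatment, and do not say how the Ankrd31 allele was made. ANKRD31 is needed for the normal placing of meiotic DNA double-strand breaks in mice, and the study asked how its loss affects the transcripts of the testis.

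Spermatogonia are the mitotic germ cells of the testis. Under retinoic acid, undifferentiated spermatogonia turn on the receptor tyrosine kinase Kit, divide several more times as differentiating spermatogonia, and then enter meiosis as preleptotene spermatocytes. The basic helix-loop-helix (bHLH) factors Sohlh1 and Sohlh2 and the DM-domain factors Dmrt1 and Dmrtb1 govern this change of state, and cyclin D2, encoded by Ccnd2, acts in the G1 phase of the divisions. Prss50, which encodes a testis serine protease-like protein, and Ly6k, which encodes a GPI-anchored germ cell surface protein that binds TEX101, are germ cell genes and not known transcriptional regulators. In these libraries Prss50 and Ly6k varied with early spermatocyte markers from library to library. The summed general germ cell markers had the same order of libraries in each genotype, over a narrower range. Stra8, a differentiating spermatogonia marker, and Id4, an undifferentiated spermatogonia marker, also had this order. Kit and Zbtb16 of the same lists did not. These values therefore do not assign this pair to the listed cell type or to another. The cell of origin was not measured.

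The libraries held between 21014060 and 22706296 counts assigned to genes. The targeted gene, Ankrd31, stood at 37.3 ± 3.89 CPM in knockout and 66.8 ± 16.6 CPM in wild-type testes (SD, n = 3 each; CPM is the count scaled to the effective library size), with no overlap. Its log2 fold change of -0.84 ± 0.17 had an adjusted p of 1 in edgeR, and with the replicate number as a blocking term it fell by 0.82 ± 0.07 (adjusted p = 0.00505 in edgeR). Whole testis holds many cell types, and fewer cells of a type cannot be told apart from less RNA per cell. The 10 early spermatocyte markers, all detected, summed to 1930.3, 1331.5 and 1540.0 CPM in knockout replicates 1, 2 and 3 and to 1952.7, 999.1 and 1283.2 CPM in wild-type replicates 1, 2 and 3, so that replicate 1 of both genotypes stood above the other 4 libraries. The 6 general germ cell markers, such as Ddx4 and Dazl, varied less, with sums of 1297 to 1501 CPM in knockout and 1232 to 1550 CPM in wild-type testes. Wild-type replicate 3 carried more RNA of epididymis and rete markers (60.3 CPM in sum, against 13.9 CPM or less in each other library; Lcn9 had 0 counts throughout). A list of 9 differentiating spermatogonia markers holds all 8 genes, so that its level is no separate check of the label.

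None of the 8 genes passed the test between knockout and wild-type testes over all genes, and Kit, Sohlh2 and Dmrt1 had nearly the same mean in both genotypes. Cyclin D2 was the gene with the largest fitted difference, lower in the knockout, and Prss50 and Ly6k were the genes that varied most between mice of the same genotype. In edgeR's quasi-likelihood test 0 of the 8 genes passed at an adjusted p under 0.05, and 0 had an unadjusted p under 0.05. Over all 18040 genes 0 passed (0.0%), with 374 (2.07%) at an unadjusted p under 0.05. DESeq2 called 2 genes (0.0111%; 242 unadjusted) and limma voom 0 (382 unadjusted), and neither tool called any of the 8, nor did edgeR without the filter on low counts (1 of 30982 genes, 0.00323%); DESeq2 gave Ccnd2 alone of them an unadjusted p under 0.05. The median log2 fold change, knockout over wild type, was -0.0016 over the 8 genes and -0.0048 over all tested genes. The groups overlapped for each of the 8 genes, while 6.59% of all tested genes had groups that did not overlap (3.09% with the knockout above and 3.5% with it below).

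**Figure D1:**
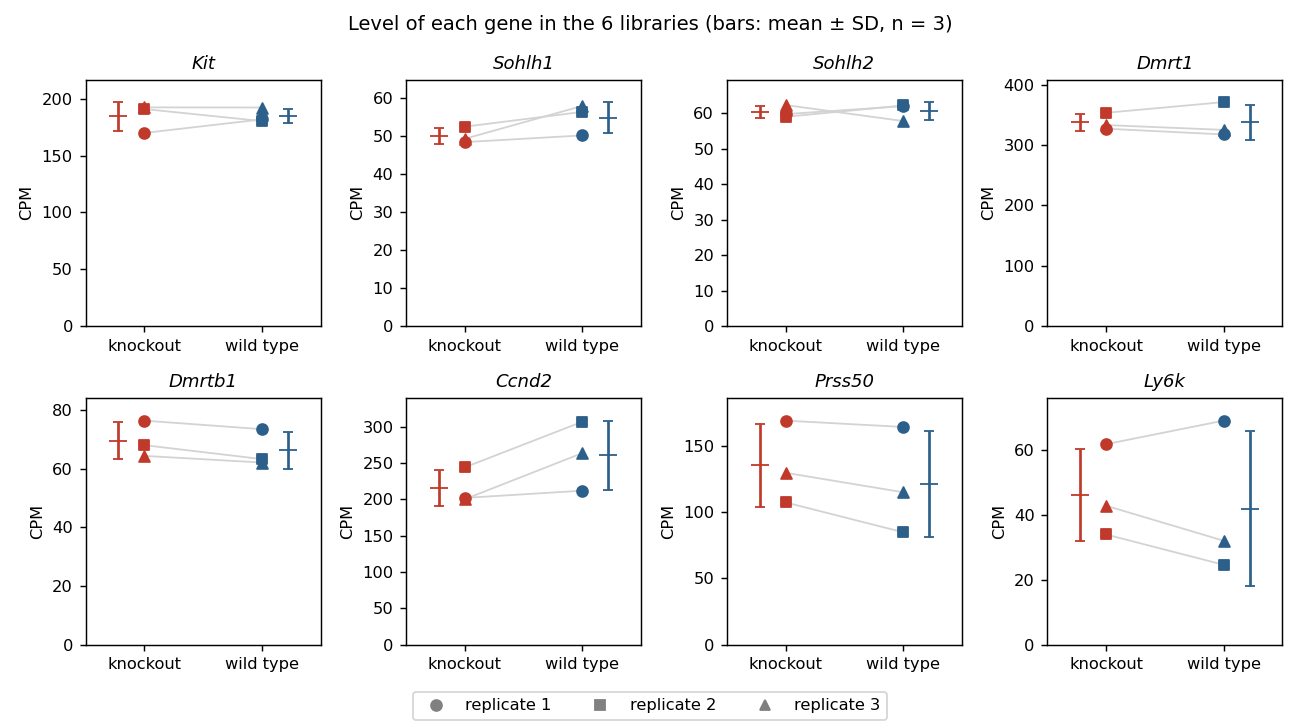
CPM of the 8 genes (vertical axes, from 0) in knockout (red) and wild-type (blue) testes; symbols mark the replicate number, grey lines join libraries of the same number, and bars give mean ± SD over 3 libraries. The groups overlap in every panel, and replicate 1 is the highest library of both genotypes for Dmrtb1, Prss50 and Ly6k.

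Dmrt1 (ENSMUSG00000024837, mm10 chr19:25505618-25604329, plus strand) encodes a DM-domain transcription factor that keeps spermatogonia mitotic and activates Sohlh1; Sertoli cells make it too. It was the most abundant of the 8 genes, at 327.4, 353.8 and 333.4 CPM in knockout and 317.8, 371.5 and 325.5 CPM in wild-type replicates 1, 2 and 3. The highest and the lowest library were both wild type, so the knockout values lay inside the wild-type range. The means were 338.2 ± 13.9 and 338.3 ± 29.0 CPM in knockout and wild-type testes, and the log2 fold change of -0.0002 had a 95% interval of -0.16 to 0.16 (0.892 to 1.12 fold). Its sign turned with the setting (positive in 11 of 16 alternatives), so no direction is given. The 10 Sertoli markers summed to 7574 to 8200 CPM in knockout and 7191 to 8075 CPM in wild-type testes, with none at 0, and their part in the Dmrt1 level was not tested.

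Sohlh1 (ENSMUSG00000059625, chr2:25842995-25847248, minus strand) had 48.5, 52.6 and 49.4 CPM in knockout and 50.3, 56.5 and 58.0 CPM in wild-type replicates 1, 2 and 3. Knockout was the lower library in each same-number pair, while the groups overlapped because knockout replicate 2 lay above wild-type replicate 1. The means were 50.1 ± 2.14 CPM in knockout and 54.9 ± 4.12 CPM in wild-type testes, with a log2 fold change of -0.13 ± 0.08 (SE; 95% interval -0.30 to 0.04) that did not pass in edgeR (adjusted p = 1). In the blocked fit, which takes the replicate number as a term, it was -0.13 ± 0.06, with an unadjusted p of 0.0396 and an adjusted p of 0.646 in edgeR.

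Sohlh2 (ENSMUSG00000027794, chr3:55182028-55209957, plus strand), which encodes the dimer partner of SOHLH1, was the steadiest of the 8 genes. It had 59.7, 59.0 and 62.3 CPM in knockout and 62.0, 62.2 and 57.8 CPM in wild-type replicates 1, 2 and 3. Its highest library was 1.08 times its lowest, and its log2 fold change of -0.0076 ± 0.07 had an interval of -0.15 to 0.14. Per length, the ratio of Sohlh1 to Sohlh2 RPKM was 1.49, 1.63 and 1.45 in knockout and 1.49, 1.67 and 1.84 in wild-type replicates 1, 2 and 3. Replicates 1 had the same ratio in both genotypes, and the knockout ratio was the lower one in the other pairs; this ratio was not tested.

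Kit (ENSMUSG00000005672, chr5:75574916-75656722, plus strand), a known target of both SOHLH proteins, had 170.0, 191.1 and 192.5 CPM in knockout and 181.9, 180.4 and 192.4 CPM in wild-type replicates 1, 2 and 3. The wild-type values lay inside the knockout range. The means were 184.5 ± 12.6 CPM in knockout and 184.9 ± 6.52 CPM in wild-type testes, with a log2 fold change of -0.0031 ± 0.07 and a 95% interval of -0.15 to 0.15 (0.899 to 1.11 fold). Leydig and mast cells also use Kit. The 8 Leydig markers, none at 0, summed to 440.4 to 977.7 CPM in knockout and 534.6 to 618.7 CPM in wild-type testes, with a log2 ratio of 0.04, 0.66 and -0.42 within pairs 1, 2 and 3, beside -0.10, 0.08 and 0.0009 for Kit; their part in the Kit level was not tested. The 7 mast cell markers summed to at most 3.16 CPM in knockout and 3.17 CPM in wild-type testes, and Fcer1a had 0 counts throughout.

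The promoter windows of Sohlh1, Sohlh2 and Kit are shown because SOHLH1 and SOHLH2 belong to the bHLH proteins, which bind E-boxes (CANNTG, the same letters on both strands), and act on Kit; that of Prss50 is shown as the member with the largest spread that has a window. The windows are RefSeq's (GRCm38.p6), run from 250 bases before to 50 bases after the start, and are given 5′ to 3′ on the gene's strand with each CANNTG in capitals. They lie at chr2:25847199-25847498 (minus), chr3:55181794-55182093 (plus), chr5:75574737-75575036 (plus, the first of 2 windows) and chr9:110857714-110858013 (plus, the first of 2).
Sohlh1: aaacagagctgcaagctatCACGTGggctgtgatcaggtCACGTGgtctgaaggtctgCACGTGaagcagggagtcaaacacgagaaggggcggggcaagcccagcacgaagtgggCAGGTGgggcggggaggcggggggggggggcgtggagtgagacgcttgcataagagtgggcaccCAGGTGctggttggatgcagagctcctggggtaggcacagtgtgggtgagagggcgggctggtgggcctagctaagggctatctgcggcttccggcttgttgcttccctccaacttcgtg
Sohlh2: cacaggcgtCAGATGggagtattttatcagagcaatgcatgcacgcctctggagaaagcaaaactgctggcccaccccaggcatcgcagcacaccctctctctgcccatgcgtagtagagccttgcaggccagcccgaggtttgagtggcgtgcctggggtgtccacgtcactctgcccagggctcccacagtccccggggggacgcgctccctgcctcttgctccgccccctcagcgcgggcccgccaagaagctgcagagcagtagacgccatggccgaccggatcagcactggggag
Kit: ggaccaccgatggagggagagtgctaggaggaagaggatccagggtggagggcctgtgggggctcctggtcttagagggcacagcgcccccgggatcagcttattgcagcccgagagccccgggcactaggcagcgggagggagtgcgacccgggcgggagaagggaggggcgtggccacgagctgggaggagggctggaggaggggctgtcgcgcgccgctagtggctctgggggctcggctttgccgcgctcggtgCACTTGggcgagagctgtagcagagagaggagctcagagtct
Prss50: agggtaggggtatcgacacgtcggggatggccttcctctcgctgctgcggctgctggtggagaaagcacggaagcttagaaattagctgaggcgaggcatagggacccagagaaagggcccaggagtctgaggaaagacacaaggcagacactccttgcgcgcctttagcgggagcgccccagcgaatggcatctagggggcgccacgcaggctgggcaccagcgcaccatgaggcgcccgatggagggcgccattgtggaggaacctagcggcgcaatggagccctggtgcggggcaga
The Sohlh1 window held 5 E-boxes, 3 of them with the palindrome CACGTG, the Sohlh2 and Kit windows held 1 each and the Prss50 window 0. Among 32851 windows of this length, 72.3% held a CANNTG and 2.1% held 5 or more, while 7.15% held a CACGTG and 0.0883% held 3 or more. The letters ACAATGT, the core of the DMRT1 motif searched on both strands, were in none of the windows of the members and in 2.96% of all windows. These are matches of letters, and no binding was measured. Windows matched 5 of the 8 genes, with 3 E-boxes in each of the 2 Dmrtb1 windows; Dmrt1, Ccnd2 and Ly6k were not matched.

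Dmrtb1 (ENSMUSG00000028610, chr4:107676290-107684230, minus strand), also called Dmrt6, encodes a DM-domain factor that acts at the change from mitotic divisions to meiosis. It had 76.4, 68.0 and 64.3 CPM in knockout and 73.4, 63.2 and 62.1 CPM in wild-type replicates 1, 2 and 3. Replicate 1 was the highest library of both genotypes, and knockout was slightly above wild type in each pair, by 0.06, 0.10 and 0.05 on the log2 scale. These pair ratios were the most alike of the 8 genes (SD 0.03), and the log2 fold change was 0.07 ± 0.09 without and 0.07 ± 0.05 with the block, with adjusted p-values of 1 and 0.809 in edgeR. Without knockout replicate 1 the unblocked value was -0.0015.

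Ccnd2 (ENSMUSG00000000184, chr6:127125162-127152193, minus strand) had 201.9, 244.0 and 200.2 CPM in knockout and 211.9, 306.8 and 263.6 CPM in wild-type replicates 1, 2 and 3. Replicate 2 was the highest library of both genotypes, and the groups overlapped because knockout replicate 2 lay above wild-type replicate 1. The means were 215.4 ± 24.9 CPM in knockout and 260.8 ± 47.6 CPM in wild-type testes, and the ratio of the means was 82.6%. Its log2 fold change of -0.28 ± 0.14 had a 95% interval of -0.59 to 0.04. It was -0.14 without wild-type replicate 2 and -0.41 without wild-type replicate 1. Within pairs the log2 ratios were -0.07, -0.33 and -0.40, and with the block the value was -0.27 ± 0.06 (interval -0.40 to -0.13), with an unadjusted p of 0.00109 and an adjusted p of 0.276 in edgeR. The 12 markers of undifferentiated spermatogonia, none at 0, summed to 288.3, 296.7 and 323.8 CPM in knockout replicates 1, 2 and 3. Their sums were 281.8, 327.9 and 347.1 CPM in wild-type replicates 1, 2 and 3. In both genotypes this sum was highest in replicate 3 and Ccnd2 in replicate 2. Of these markers, 10 had values below 0 and 2 above, beside 9418 below and 8614 above among the 18040 tested genes. The 10 Sertoli markers summed to 7683.9, 8199.6 and 7574.1 CPM in knockout replicates 1, 2 and 3. They summed to 7611.4, 8075.1 and 7190.6 CPM in wild-type replicates 1, 2 and 3, and 5 had values above 0 and 5 below. The part of either list in the Ccnd2 difference was not tested. On the opposite strand, 2 genes of low count shared exon bases with Ccnd2, Gm43126 (372 bases, 1 count in all libraries) and 9330179D12Rik (368 bases, 45 counts).

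Prss50 (ENSMUSG00000048752, chr9:110857967-110864629, plus strand) had 169.6, 107.6 and 130.1 CPM in knockout and 164.8, 85.1 and 115.3 CPM in wild-type replicates 1, 2 and 3. Both genotypes had the same order of libraries, with replicate 1 highest and replicate 2 lowest. The means were 135.8 ± 31.4 CPM in knockout and 121.7 ± 40.2 CPM in wild-type testes, with a log2 fold change of 0.16 ± 0.29. With the block the spread narrowed, and the value was 0.18 ± 0.06 (interval 0.06 to 0.30), with an unadjusted p of 0.00635 and an adjusted p of 0.494 in edgeR. Without knockout replicate 1 or wild-type replicate 2 the unblocked value was -0.03 and -0.04.

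Ly6k (ENSMUSG00000044678, chr15:74796874-74799986, minus strand) was the most variable of the 8 genes. It had 61.8, 33.9 and 42.8 CPM in knockout and 69.0, 24.6 and 32.0 CPM in wild-type replicates 1, 2 and 3, so that the highest and the lowest library, both wild type, differed 2.81 fold. The order of libraries was that of Prss50 in each genotype. The means were 46.2 ± 14.2 CPM in knockout and 41.9 ± 23.8 CPM in wild-type testes, and the log2 fold change of 0.14 ± 0.48 had a wide interval of -1.10 to 1.39. Within pairs the log2 ratios were -0.16, 0.46 and 0.42, and the blocked value was 0.22 ± 0.14 (adjusted p = 0.819 in edgeR). Without knockout replicate 1, wild-type replicate 2 or wild-type replicate 3 the unblocked value was -0.13, -0.13 and -0.01. The opposite-strand gene Gm17189 shared 395 exon bases with Ly6k and had 3 counts in all libraries.

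**Figure D2:**
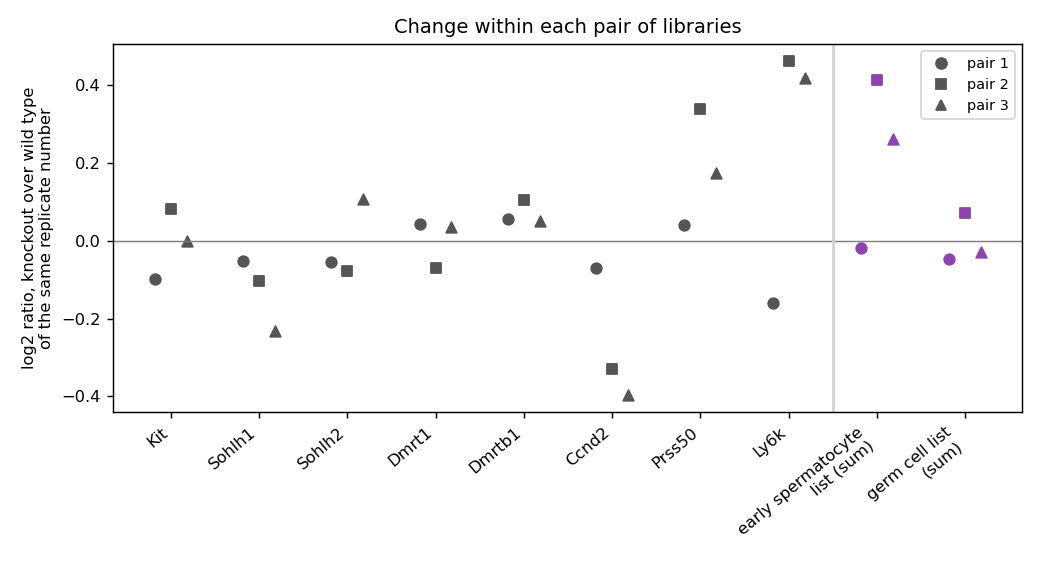
Log2 ratio of knockout over wild type within each pair of libraries of the same replicate number (vertical axis) for the 8 genes and, right of the line, for the summed CPM of 2 marker lists. Ccnd2 runs from -0.40 to -0.07, Prss50 from 0.04 to 0.34 and Ly6k from -0.16 to 0.46, and pair 1 lies nearest to 0 for Ccnd2, Prss50 and Ly6k.

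Libraries of the same number deviated together from their group means, so the blocked fit bears on the counts. Knockout was higher in 3 of 3 pairs for 2 of the 8 genes, Dmrtb1 and Prss50, against 13.9% of all tested genes, and lower in 3 of 3 pairs for 2 genes, Sohlh1 and Ccnd2, against 14.6%. Pairs moved 1 way for 4 of the 8 genes and for 28.5% of all tested genes. In the blocked edgeR fit 8 of 18040 genes passed (0.0443%), none of them among the 8 genes studied here, and the blocked DESeq2 and limma voom fits, with 14 (0.0776%) and 1 (0.00554%), held none of the 8 either. At an unadjusted p under 0.05 that fit had 3 of the 8 genes, Ccnd2, Prss50 and Sohlh1, and 7.48% of all tested genes. By direction the knockout was higher for 1 of the 8 (3.59% of all genes) and lower for 2 (3.89%). The 8 genes were chosen with earlier results of these data known, so this count is a description. When both replicate 1 libraries were left out of the blocked fit, which leaves 2 libraries a genotype, Ccnd2 fell (-0.36 ± 0.05, adjusted p = 0.0163 in edgeR) and Ly6k rose (0.44 ± 0.08, adjusted p = 0.0443 in edgeR), among 63 of 18104 genes called (0.348%). Without both replicate 2 libraries 57 genes passed (0.314%), and without both replicate 3 libraries 0, with none of the 8 in either. Over the 16 alternatives the adjusted p ran from 0.0163 to 1 for Ccnd2 and from 0.0443 to 1 for Ly6k, and each passed in 1.

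**Figure D3:**
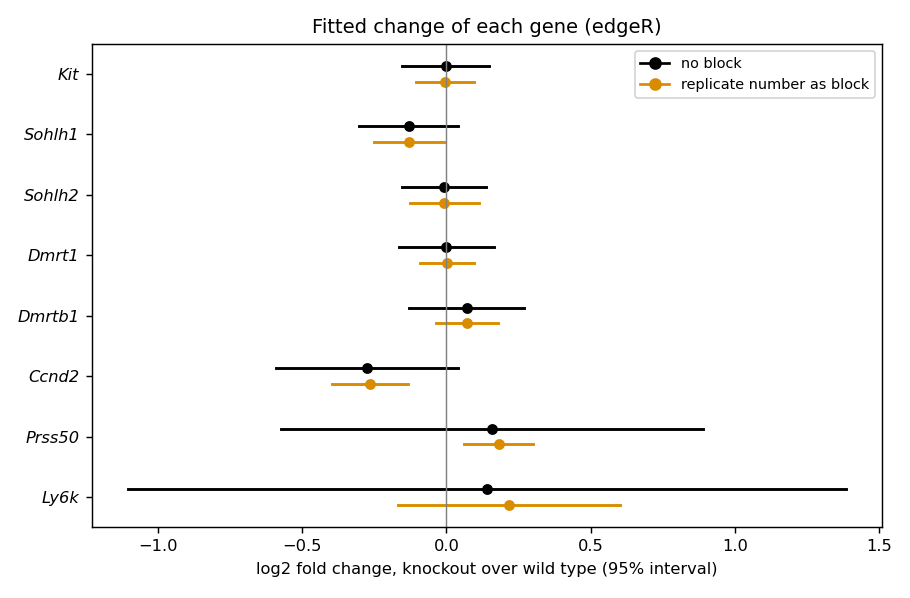
Fitted log2 fold change of knockout over wild type (horizontal axis) with its 95% interval for each of the 8 genes, without a block (black) and with the replicate number as a block (orange), in edgeR. The intervals of Ccnd2, Prss50 and Sohlh1 leave out 0 with the block and include it without. None of the 8 genes passed in either fit after adjustment over all genes.

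Prss50 and Ly6k followed the level of early spermatocyte genes from library to library. As a share of the summed CPM of the 10 early spermatocyte markers, Prss50 stood at 8.79%, 8.09% and 8.45% in knockout and at 8.44%, 8.51% and 8.99% in wild-type replicates 1, 2 and 3. These 6 shares were nearly level, where the Prss50 CPM itself differed 1.99 fold between its highest and lowest library. Ly6k stood at 3.20%, 2.55% and 2.78% in knockout and 3.54%, 2.46% and 2.49% in wild-type replicates 1, 2 and 3, and replicate 1 remained the highest. Ccnd2 did not keep a level share, with 10.5%, 18.3% and 13% in knockout and 10.9%, 30.7% and 20.6% in wild-type replicates 1, 2 and 3. The log2 ratio of the spermatocyte sum within pairs was -0.02, 0.41 and 0.26, beside 0.04, 0.34 and 0.17 for Prss50. Of the 10 markers, 9 had log2 fold changes above 0 and 1 below, beside 8614 above and 9418 below among the 18040 tested genes. The part of spermatocyte content in the differences of Prss50, Ly6k and Ccnd2 was not tested.

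**Figure D4:**
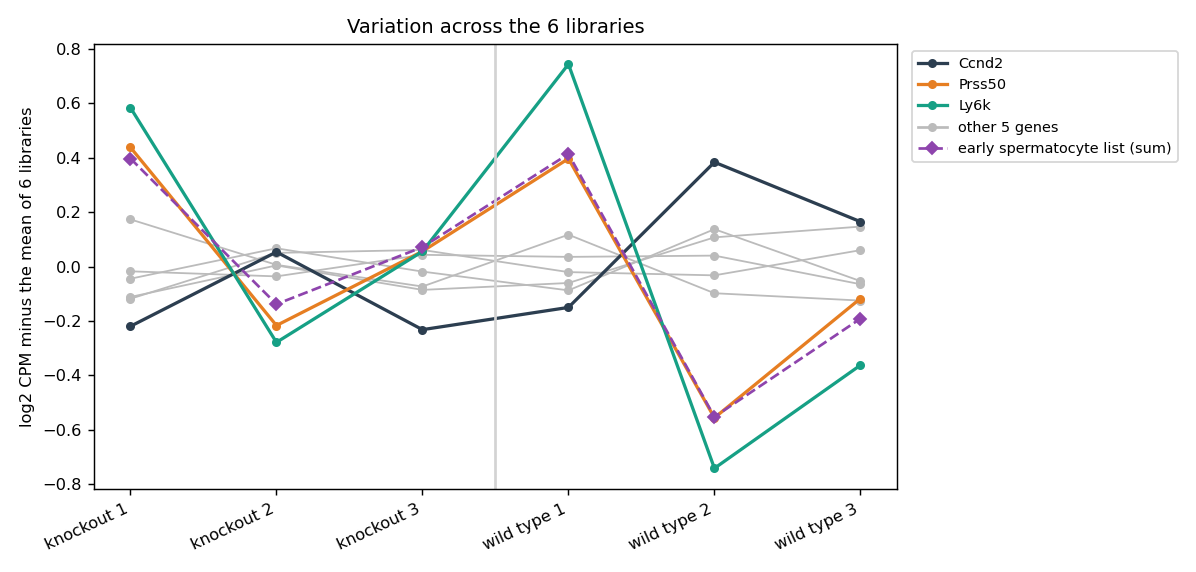
Log2 CPM of the 8 genes minus their own mean over the 6 libraries (vertical axis) in each library, with the summed CPM of the 10 early spermatocyte markers (dashed, on the same scale). Prss50 lies close to the dashed line and Ly6k moves with it over a wider range, Ccnd2 is highest in wild-type replicate 2 where both are lowest, and the other 5 genes vary less.

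The spread between mice set Prss50, Ly6k and Ccnd2 apart from the other 5 genes as a description of these libraries. The SD of log2 CPM within a genotype was 0.63 for Ly6k, 0.41 for Prss50, 0.22 for Ccnd2 and 0.13 for Dmrtb1. It was 0.10 for Dmrt1, 0.09 for Sohlh1, 0.08 for Kit and 0.05 for Sohlh2. Among the 5772 tested genes whose mean CPM lay in the range of the 8, the median was 0.0853, and 99.9%, 99.5% and 95.8% of those genes had a smaller SD than Ly6k, Prss50 and Ccnd2. That share was 78.3% for Dmrtb1, 58.3% for Dmrt1, 53% for Sohlh1, 44.6% for Kit and 16.8% for Sohlh2.

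By the root mean square difference of centred log2 CPM over the 6 libraries, the genes most like Prss50 were Dpep3, which encodes a testis dipeptidase (0.04), the crossover gene Msh5 (0.04) and the HORMA-domain gene Hormad2 (0.05). Those most like Ly6k were 4930524B15Rik (0.03), C78859 (0.06) and Brdt, which encodes the testis bromodomain protein (0.08). The member nearest to Ly6k was Prss50, at 0.20, with 0.443% of tested genes nearer. For Ccnd2 the nearest genes were Ier5l (0.04), Trim54 (0.04) and Ifnlr1 (0.04), and the nearest member was Sohlh1 (0.14, with 3.92% of genes nearer). The nearest genes were Fpgt for Kit, Noct for Sohlh2, Tbc1d13 for Dmrt1 and Dolpp1 for Dmrtb1, at 0.01 to 0.02. Kit, Sohlh1, Sohlh2, Dmrt1 and Dmrtb1 varied less, with log2 ranges over the 6 libraries from 0.108 (Sohlh2) to 0.299 (Dmrtb1). Between 12.7% and 22.3% of all genes lay nearer to each of them than its nearest member.

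Per length, in RPKM (CPM divided by the exon length in kilobases), Dmrt1 stood highest, at 130.4 ± 5.34 in knockout and 130.4 ± 11.2 in wild-type testes. Its lowest library (122.5 RPKM) lay above the highest of Prss50 (116.5 RPKM). Prss50 averaged 93.2 ± 21.5 RPKM in knockout and 83.6 ± 27.6 RPKM in wild-type testes, and Ly6k 55.7 ± 17.2 RPKM in knockout and 50.5 ± 28.7 RPKM in wild-type testes; the libraries of these 2 neighbours overlapped. Sohlh1 came next, at 38.9 ± 1.66 RPKM in knockout and 42.6 ± 3.19 RPKM in wild-type testes, inside the range of Ly6k. Dmrtb1, at 33.4 ± 2.96 RPKM in knockout and 31.8 ± 3.00 RPKM in wild-type testes, lay below every Sohlh1 library. Sohlh2 averaged 25.5 ± 0.739 RPKM in knockout and 25.7 ± 1.05 RPKM in wild-type testes, below every Dmrtb1 library. Ccnd2 averaged 22.9 ± 2.64 RPKM in knockout and 27.7 ± 5.05 RPKM in wild-type testes, and its libraries overlapped those of Dmrtb1, Sohlh2 and Kit. Kit was the lowest of the 8, at 20.7 ± 1.42 RPKM in knockout and 20.8 ± 0.731 RPKM in wild-type testes, below every Sohlh2 library.

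**Figure D5:**
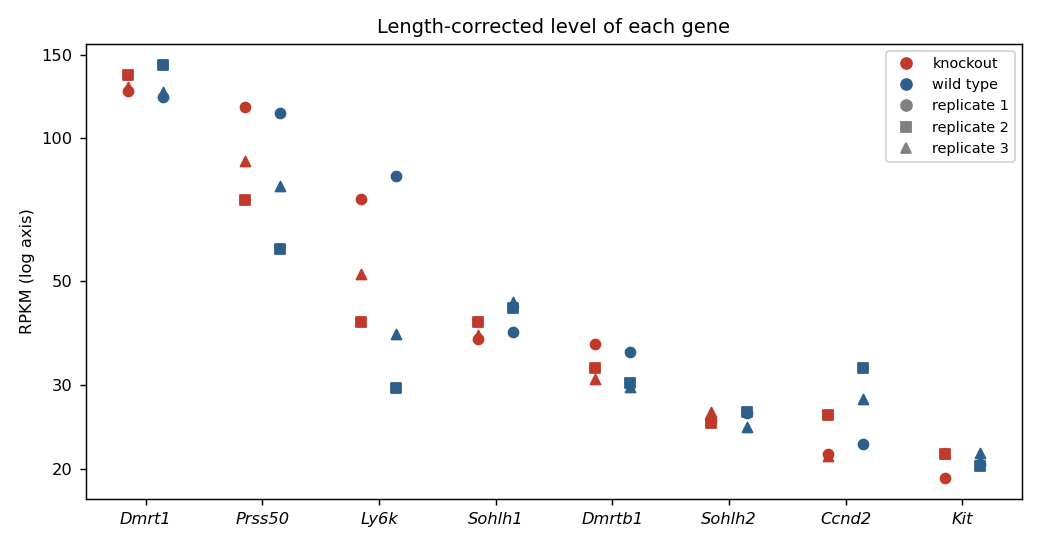
RPKM of the 8 genes (log axis) in each knockout (red) and wild-type (blue) library, ordered by the mean over both genotypes; symbols mark the replicate number. Dmrt1 lies between 122.5 and 143.2 RPKM and Kit between 19.1 and 21.6 RPKM, while Ly6k spans 29.7 to 83.3 RPKM.

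Genes related to the 8 were taken from 7 lists. Of their 92 genes, 77 were tested, and 0 passed in edgeR with or without the block, in DESeq2 or in limma voom. At an unadjusted p under 0.05 there was 1 of the 77 without the block, against 2.07% of all tested genes, and 10 of the 77 with it, against 7.48%, and 36 of the 77 values were above 0 and 41 below. Kitl, the ligand of Kit, made by Sertoli cells and named here for its role, averaged 367.2 ± 51.3 CPM in knockout and 369.8 ± 54.7 CPM in wild-type testes, with a log2 fold change of -0.01 ± 0.13. Of the 16 Kit signalling genes, 7 values were above 0 and 9 below (median log2 fold change -0.01), and the smallest p-values were those of the adaptor gene Shc1 (-0.07 ± 0.06), the S6 kinase gene Rps6kb1 (0.07 ± 0.06) and the PI3 kinase subunit gene Pik3ca (0.07 ± 0.08). The highest knockout library of Shc1 lay below its lowest wild-type library. Of all tested genes, 3.5% had groups apart with the knockout below, and 6.59% had groups apart in either direction. Shc1, Lhx8, Rbl2 and Nanos3, whose groups were apart, are given among the genes named for their small p-values.

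Of 11 bHLH relatives and partners of the Sohlh genes, 6 values were above 0 and 5 below (median 0.0009). Lhx8, a LIM homeobox gene that acts with Sohlh1 in the mouse ovary, averaged 6.59 ± 0.305 CPM in knockout and 7.80 ± 0.22 CPM in wild-type testes, with no overlap of the groups (-0.24 ± 0.12, unadjusted p = 0.0665 in edgeR's quasi-likelihood fit). The oocyte factor gene Figla had 0.20 ± 0.18 and the bHLH inhibitor gene Id2 0.07 ± 0.07. Of the DM-domain family, 7 of 9 genes were tested, 5 values were above 0 and 2 below (median 0.09), and the X-linked Dmrtc1b and Dmrtc1a had 0.64 ± 0.45 and 0.17 ± 0.14, followed by Dmrta2 (0.21 ± 0.20). With the block, Dmrtc1b had 0.66 ± 0.22 (unadjusted p = 0.00995, adjusted p = 0.532 in edgeR) and Dmrtc1a 0.18 ± 0.07 (unadjusted p = 0.0215, adjusted p = 0.588 in edgeR). Dmrtc1a, Dmrtc1b and their relatives are near-identical copies, so the counts of each are uncertain.

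Among 15 D cyclins and partners, 7 values were above 0 and 8 below (median -0.0076). Beside Ccnd2 (-0.28), the other D cyclin genes Ccnd1 and Ccnd3, named for their role, had values of -0.0076 ± 0.08 and -0.05 ± 0.10. The retinoblastoma family genes Rbl2 (0.15 ± 0.07) and Rb1 (0.12 ± 0.09) and the CDK inhibitor gene Cdkn2d (0.16 ± 0.11) had the smallest p-values, and the knockout libraries of Rbl2 all lay above the wild-type ones. Differences between D cyclins were not tested.

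Of 11 serine protease genes related to Prss50, 3 were tested, with values of -0.15 ± 0.56 for Prss45, -0.06 ± 0.38 for Prss44 and 0.04 ± 0.29 for Prss42, all under 3 CPM in every library. Of the Ly6 and Tex101 family, 9 of 14 genes were tested, with 4 values above 0 and 5 below (median -0.22). Ly6e had -0.22 ± 0.10, with log2 ratios of -0.05, -0.04 and -0.56 within pairs 1, 2 and 3. Its highest library was wild-type replicate 3 (169.6 CPM). Ly6g6c had 1.02 ± 0.51, at 0.09 to 0.55 CPM over all libraries. Ly6g5b had -0.58 ± 0.39, at 0.36 to 0.95 CPM, so both lay near the floor. Tex101, whose protein binds that of Ly6k, is also one of the early spermatocyte markers and was named for its role. It had 344.9, 216.2 and 249.1 CPM in knockout and 339.5, 151.9 and 207.2 CPM in wild-type replicates 1, 2 and 3, the order of libraries seen for Ly6k.

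Of 16 further genes listed as those of differentiating spermatogonia, 6 values were above 0 and 10 below (median -0.01). Neurog3 of this list is also among the undifferentiated markers. Nanos3, an RNA-binding factor gene that is also among the undifferentiated markers, averaged 3.39 ± 0.291 CPM in knockout and 4.52 ± 0.53 CPM in wild-type testes, with no overlap (-0.41 ± 0.16, unadjusted p = 0.0279 and adjusted p = 1 in edgeR). Sox3, a transcription factor gene of committed spermatogonia, had -0.16 ± 0.08 and Elavl2 0.11 ± 0.11. Stra8, the retinoic acid target that opens meiosis, averaged 189.3 ± 20.3 CPM in knockout and 190.7 ± 10.5 CPM in wild-type testes (-0.01 ± 0.08), and was named for its role.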

How the data were processed

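Unnormalized whole-number counts for 6 libraries were deposited by the authors in 1 table. The submitters' processing notes name bcl2fastq 2.19.1, GSNAP, featureCounts 1.6.0 and mm10; neither the strand setting of the counting nor the annotation release is stated there. A directional library kit was used, per the labels' protocols. The exon length per gene, per the file headers, gave RPKM.

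The 92 spike-in rows (1 count in all) were left out. Of 49671 gene rows, 49326 matched GENCODE M21 (release 21). The test was edgeR 4.0.16 in R 4.3.3 (robust quasi-likelihood fit after filterByExpr and TMM scaling, two-sided, Benjamini-Hochberg over 18040 genes, threshold 0.05) on all 6 libraries, and on simulated counts before that. Log2 values used a prior count of 2. DESeq2 1.42.0, limma voom 3.58.1, RLE factors, no filter, the replicate block and left-out libraries were alternatives. The groups share replicate numbers. Deviations from group means correlated at 0.425, 0.258 and 0.284 between same-numbered libraries, each over 0.1, and at -0.291 to 0.019 otherwise. A gene's deviations cancel out within a genotype, so the lower values otherwise are no separate evidence of pairing. The numbers were taken to pair the libraries on this hint from the data, and the labels name no litter or day. Within each genotype, libraries differed by a chi-square of 7.35 to 12.96 per degree of freedom, so none was a duplicate. The members, lists and alternatives were chosen with earlier results of these data known. Named from each list were the 3 genes with the smallest p, plus Kitl, Ccnd1, Ccnd3, Tex101 and Stra8, named for their roles after their values were seen; the gene most like Sohlh1 is not reported here. The members had 559 to 8448 counts per library; for the steadiest, such as Sohlh2, counting error is not small beside the spread between mice.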

Additional observations from a re-analysis of the deposited data

How the results depend on the processing

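The count of passing genes over the whole table was 0 without the block, and it was 1 without a filter on low counts, 2 with DESeq2, 8 with the replicate block in edgeR, 14 with the replicate block in DESeq2 and 1 with the replicate block in limma voom; it ran from 0 to 63 when libraries were left out (with the block, 63 without both replicate 1 and 57 without both replicate 2 libraries). The count among the 8 genes was 0 in the other alternatives and ran from 0 to 2 when libraries were left out, with Ccnd2 and Ly6k passing without replicate 1; the cause was not tested. With all 6 libraries the block changed no call among the 8 genes. Both replicate 1 libraries were left out only with the block. Sohlh1 and Ccnd2 were lower in all 16 alternatives. Kit, near 0, was positive with RLE factors (0.0007), without the filter (0.0026) and with DESeq2 (0.0007). Dmrt1 was positive with RLE factors (0.0038), without the filter (0.0056), with DESeq2 (0.0037) and voom (0.0023), and with the block in edgeR (0.0023), DESeq2 (0.006) and voom (0.0018). With libraries left out, log2 fold changes ran from -0.0479 to 0.0531 for Kit (-0.034 without knockout replicate 3; 0.0442 with the block and without replicate 1), -0.191 to -0.077 for Sohlh1, -0.064 to 0.0276 for Sohlh2 (-0.0336 without wild-type replicate 3; 0.0181 without knockout replicate 2 and with the block without replicate 1), -0.0428 to 0.0731 for Dmrt1 (0.0393 with the block and without replicate 2), -0.0015 to 0.151 for Dmrtb1, -0.405 to -0.142 for Ccnd2, -0.0445 to 0.439 for Prss50 and -0.131 to 0.708 for Ly6k. With 3 mice a genotype, the intervals of Prss50 and Ly6k without the block (0.672 to 1.85 and 0.465 to 2.61 fold) leave large changes in either direction undetected.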
